A study of Mus musculus with 8 samples.

Results

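Oxidative phosphorylation is carried out by 5 protein complexes of the inner mitochondrial membrane, and the genes that encode them were followed through 8 RNA-seq libraries made from mouse stem cells and cells derived from them. Members were chosen by symbol in the GENCODE vM1 annotation, as protein-coding genes whose names begin with Nduf, Uqcr, Cox4 to Cox8, Atp5 or mt-, together with Sdha, Sdhb, Sdhc and Sdhd. This gave 105 of the 37620 genes in the count files, 92 encoded by the nuclear genome and 13 by the mitochondrial genome. Complex I held 50 members, complex II 4, complex III 9, complex IV 22 and complex V 20. By role, 96 members were annotated as subunits, 4 as assembly factors of complex I (Ndufaf1 to Ndufaf4) and 1 as a factor of supercomplexes (Cox7a2l). The other 4, Cox4nb, Atp5s, Atp5sl and Atp5l-ps1, carry the name of a complex without being subunits of it.

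The libraries fell into 5 groups. R1 mouse embryonic stem cells (mESCs) gave 3 libraries after 2, 5 and 11 days of 2iJ+B-A. On day 5 of 2i and of 2iJ they gave 1 library each. All of these cells grew without feeders in medium with serum. The 2i condition combines CHIR99021, an inhibitor of GSK3, with PD0325901, an inhibitor of MEK, and 2iJ adds an inhibitor of JAK kinases. In 2iJ+B-A the cells also received BMP4 and ALK5 inhibitor II, which blocks the receptor for Activin and Nodal. Another library came from a Cdx2-GFP reporter line treated with 2iJ+B-A for 2 days, from which GFP-positive cells were sorted, so line and sorting changed together with the selection. The remaining 2 libraries were mesoderm progenitors from embryoid bodies of R1 cells in a medium listed without serum, with BMP4, Activin A and Wnt3a. The day 4 mesoderm library was collected a day after IWP-2, an inhibitor of Wnt secretion, so that days 3 and 4 differed in treatment as well. Days were used as the samples of a group, so n counts days. No label says that they came from separate cultures, and p-values measure only the spread between these libraries.

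Complex I (NADH dehydrogenase) and complex II (succinate dehydrogenase) pass electrons to coenzyme Q, complex III passes them on to cytochrome c, and complex IV (cytochrome c oxidase) passes them to oxygen. Complexes I, III and IV move protons across the membrane, and complex V, the ATP synthase, uses the return of those protons to make ATP. Core subunits of every complex but complex II are encoded by the mitochondrial genome, which is transcribed from both strands as long precursors, while the other subunits are imported from the cytosol. Naive pluripotent cells are known to respire as well as to ferment glucose, and several subunits of complex IV exist as pairs of a ubiquitous and a tissue-restricted isoform.

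Levels are given as CPM, the share of reverse-strand gene counts in a library scaled to a common total, and gene counts totalled between 19810855 and 31453888 per library. The sorted library was the shallowest and had 29.7% of its read pairs unmapped, against 2.17% to 3.85% in the others. Of its uniquely mapped pairs 27.8% lay in no annotated gene, against 7.83% to 13.2% elsewhere. At 10 CPM the 95% Wilson interval of any library extended at most 13.5% of the value to either side, and at 100 CPM at most 4.25%. These intervals cover counting error only. In the mesoderm progenitors 8 of 8 nascent mesoderm markers were higher than in 2iJ+B-A (edgeR adjusted p under 0.05), with summed levels of 585 to 1608 CPM against 15.4 to 59.5 CPM. The summed level of 6 fibroblast markers was 102 CPM in the sorted library and 8.11 to 15.9 CPM elsewhere, and its part in the results for sorted cells was not tested. Summed markers of cardiac and skeletal muscle were 63.9 CPM in mesoderm progenitors on day 4 and 5.72 to 20.8 CPM elsewhere, and their part was not tested either. Because these are bulk libraries, fewer cells of a type and less RNA per cell could not be told apart.

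Before levels were compared, the mitochondrial genes were examined for their ability to receive reads, because a read that aligns equally well to several places is not counted for any gene. On NCBIM37, chromosome 1 held a copy of mitochondrial bases 6394 to 11042, 28.5% of the mitochondrial genome, at 24618374 to 24623023 on the minus strand. The copy begins inside mt-Co1 and ends inside mt-Nd4, and it differed from the mitochondrial genome by 1 substitution and 1 inserted base. The substitution, T9461C, lies in mt-Nd3 (mitochondrial base first, then the position counted from 1 on the mitochondrial genome, then the base of the nuclear copy). The ends of the copy and this position are shown because they decide which genes can be read. In each pair the upper line is the mitochondrial plus strand, the lower line is the minus strand of chromosome 1, and capitals mark bases that differ.
mt-Co1 at the left end, chrM:6349-6438: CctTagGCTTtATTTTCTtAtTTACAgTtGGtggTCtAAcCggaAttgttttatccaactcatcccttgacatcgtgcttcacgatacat
nuclear copy, chr1:24622979-24623068: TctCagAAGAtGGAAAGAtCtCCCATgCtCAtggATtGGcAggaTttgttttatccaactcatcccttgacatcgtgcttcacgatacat
mt-Nd3 substitution, chrM:9416-9506: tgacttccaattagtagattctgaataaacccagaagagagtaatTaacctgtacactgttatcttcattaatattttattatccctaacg
nuclear copy, chr1:24619911-24620001: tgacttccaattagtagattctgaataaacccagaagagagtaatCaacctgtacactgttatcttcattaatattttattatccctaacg
mt-Nd4 at the right end, chrM:10998-11087: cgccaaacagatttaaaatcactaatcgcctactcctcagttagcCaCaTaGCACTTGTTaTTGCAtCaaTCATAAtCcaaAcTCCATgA
nuclear copy, chr1:24618329-24618418: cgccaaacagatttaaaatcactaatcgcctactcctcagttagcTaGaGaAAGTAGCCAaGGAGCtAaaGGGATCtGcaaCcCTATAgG

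In the left pair the capitals stop where the copy begins, and in the right pair they start where it ends. Within the copy the lines shown run letter for letter alike apart from the 1 base in mt-Nd3. The inserted base, after mitochondrial base 9828, lies outside these lines. Windows of 126 bases, the length of a read, were therefore matched against the rest of the genome. All windows had an exact copy elsewhere in mt-Co2, mt-Co3, mt-Atp6, mt-Atp8 and mt-Nd4l, and 98.7% in mt-Nd3. These 6 genes encode 2 subunits of complex IV, both mitochondrial subunits of complex V and 2 subunits of complex I, and each had between 0 and 36 counts in every library. The share of copied windows was 59.9% in mt-Nd4, 26.5% in mt-Co1, 0.4% in mt-Nd2 and 0 in mt-Nd1, mt-Nd5, mt-Nd6 and mt-Cytb. The lowest level among these 7 genes was 78.6 CPM. Gm10222 and Gm10925, annotated inside the nuclear copy, together had 113 to 256 counts. The low values of the 6 copied genes were therefore not read as levels of their transcripts, and only the 7 others are described as readable. For mt-Nd4 and mt-Co1 the copied parts are the same in every library, so their levels were compared between libraries. Sums, shares and ratios below that include these 2 genes carry the loss of reads in the copied parts. They too were compared between libraries and not read as absolute amounts.

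**Figure D1:**
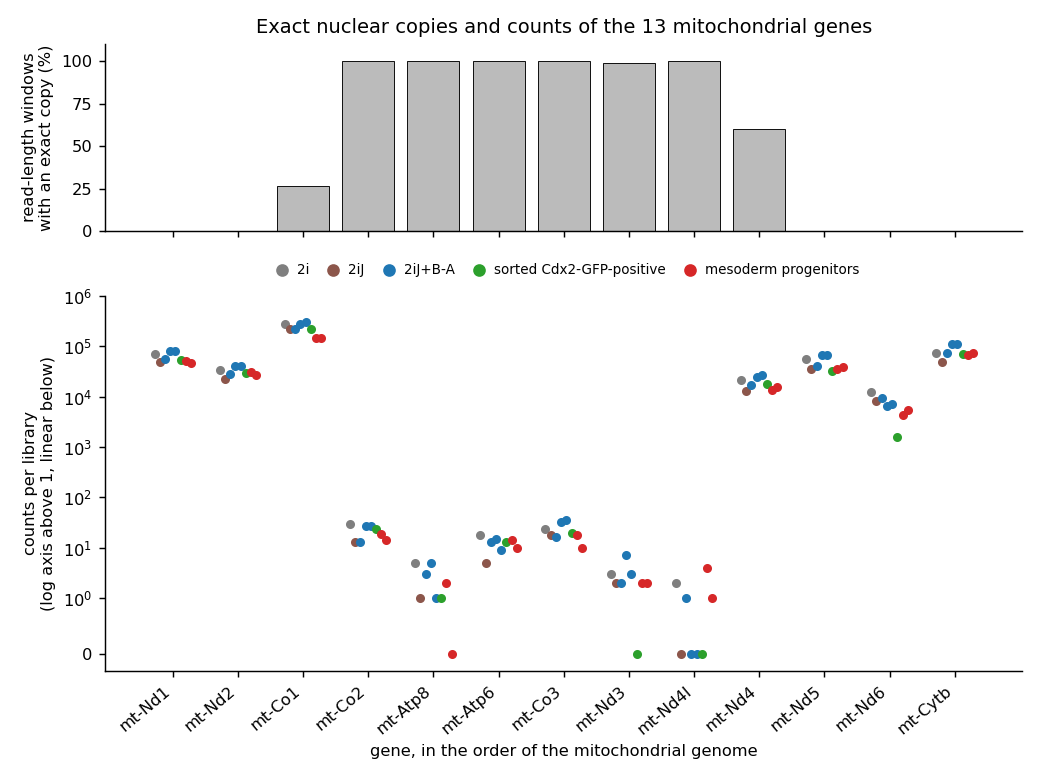
The 13 mitochondrial genes in genome order, with the share of 126-base windows that have an exact copy elsewhere in the genome (upper panel, percent) and the counts in each of the 8 libraries (lower panel, log axis above 1). The 6 genes with 98.7% or more of their windows copied have 0 to 36 counts, and the 7 others lie more than an order of magnitude above them.

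Among nuclear members, 20 had some copied window and 2 had most windows copied, Atp5g2 with 100% and Atp5l with 82.4%, so counts of these 2 may be split or lost. Of the 105 members, 98 had at least 10 counts in at least 2 libraries and were tested. The 7 not tested were mt-Nd3, mt-Nd4l, mt-Atp8, the muscle isoforms Cox6a2 and Cox8b, Atp5l-ps1 and the second identifier named Ndufb8, each with 7 counts or fewer in every library. Cox8b and the second Ndufb8 were at 0 counts in all 8 libraries.

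The readable mitochondrial mRNAs were lower in mesoderm progenitors than in 2iJ+B-A. Their summed level was 18305, 19459.8 and 20658 CPM in 2iJ+B-A on days 2, 5 and 11, and 11025 and 11467 CPM in mesoderm progenitors on days 3 and 4. It was 19581 CPM in 2i, 15515 CPM in 2iJ and 21607 CPM in sorted cells. The mesoderm progenitors were thus the 2 lowest of the 8 libraries, with a mean of 11246 ± 313 CPM (SD, n = 2) against 19474 ± 1176 CPM (SD, n = 3) in 2iJ+B-A. As a sum over members this difference was not tested.

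The mRNA mt-Co1 encodes the catalytic core of complex IV (bases 5328 to 6872 of the mitochondrial genome). Its level was 9064, 8879 and 9846 CPM in 2iJ+B-A and 4588 and 4798 CPM in mesoderm progenitors. The groups did not overlap, and the log2 fold change was -0.97 ± 0.17 (SE, edgeR adjusted p = 0.0109). In 2i, 2iJ and sorted cells it stood at 10087, 8523 and 11299 CPM, so that every pluripotent or sorted library lay above both mesoderm libraries. For mt-Cytb, the mitochondrial subunit of complex III, the levels were 3018, 3572 and 3609 CPM in 2iJ+B-A and 2194 and 2371 CPM in mesoderm progenitors. Its log2 fold change was -0.56 ± 0.16 (edgeR adjusted p = 0.0456), and 2iJ, at 1938 CPM, lay below both mesoderm libraries.

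The complex I subunits encoded in mitochondria gave log2 fold changes of -0.66 ± 0.15 for mt-Nd1 (edgeR adjusted p = 0.0226), -0.75 ± 0.17 for mt-Nd4 (0.0238) and -0.75 ± 0.17 for mt-Nd5 (0.0235). Levels of mt-Nd1 were 2268, 2549 and 2594 CPM in 2iJ+B-A and 1602 and 1502 CPM in mesoderm progenitors. For mt-Nd4 they were 709, 795 and 894 CPM against 426 and 515 CPM. For mt-Nd5 they were 1689, 2139.9 and 2149 CPM against 1107 and 1235 CPM. In none of the 3 did the groups overlap. Neither mt-Nd2, at 1177, 1315 and 1328 CPM against 967 and 867 CPM (log2 fold change -0.46 ± 0.14, adjusted p = 0.0563), nor mt-Nd6 (-0.78 ± 0.30, adjusted p = 0.105) passed the threshold. In all, 5 of the 7 readable mitochondrial members fell in mesoderm progenitors and 0 rose, against 15.5% and 11.5% of all genes tested. All of the 7 but mt-Nd6 are encoded in the same direction and transcribed as long precursors, so these calls are not separate observations.

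**Figure D2:**
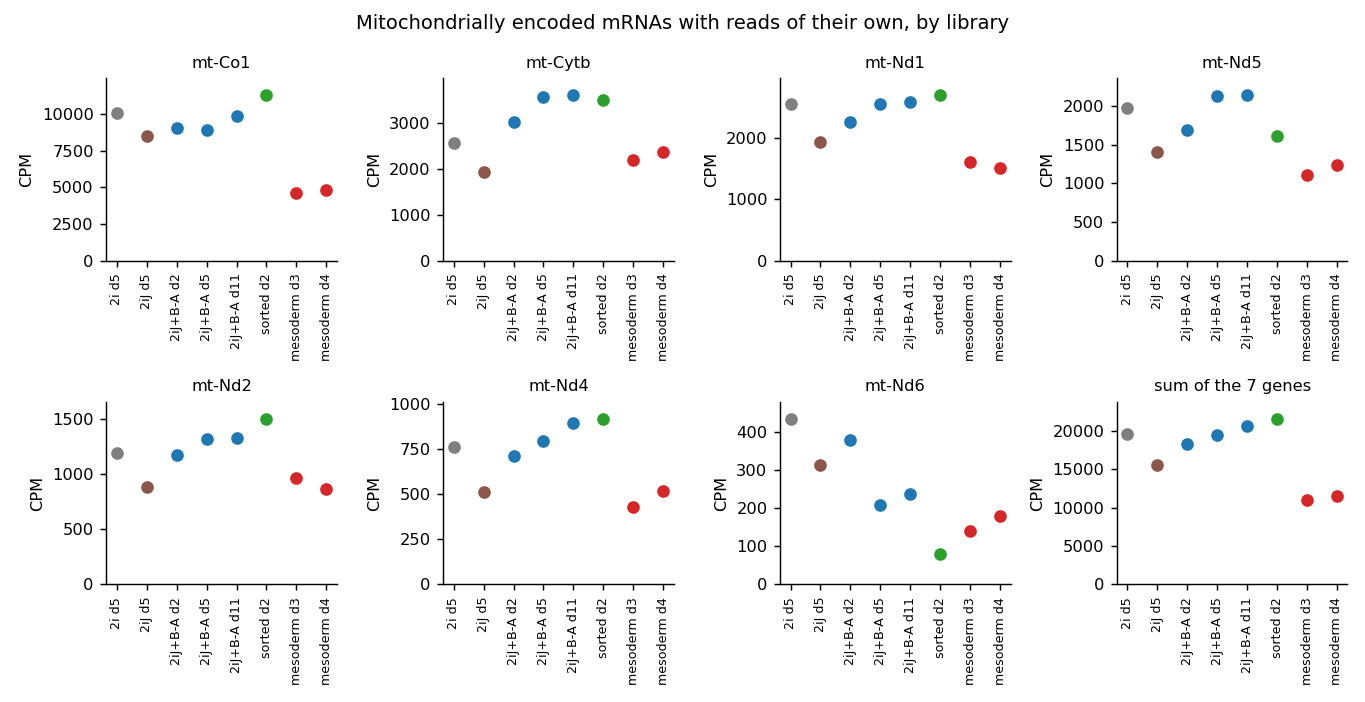
Levels of the 7 readable mitochondrial mRNAs and their sum (y axes, CPM from 0) in each of the 8 libraries (x axes, group and day; 1 point per library). The 2 mesoderm libraries have the lowest sum, 11025 and 11467 CPM, and sorted cells have the lowest mt-Nd6, 78.6 CPM.

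The readable mRNAs did not move in proportion. Of their summed counts, mt-Co1 took 49.5%, 45.6% and 47.7% in 2iJ+B-A and 41.6% and 41.8% in mesoderm progenitors. Its share was 51.5% in 2i, 54.9% in 2iJ and 52.3% in sorted cells, so the mesoderm progenitors had the lowest shares. In contrast, mt-Cytb took 16.5%, 18.4% and 17.5% in 2iJ+B-A and 19.9% and 20.7% in mesoderm progenitors. The ribosomal RNAs mt-Rnr1 and mt-Rnr2, which lie on the same precursor, did not follow the mRNAs. Together they had 1002, 1027 and 981 CPM in 2iJ+B-A and 1068 and 1721 CPM in mesoderm progenitors. Because the libraries were selected for poly-A RNA, these values also depend on how much of each transcript carries a tail, and that dependence was not tested.

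Only mt-Nd6, a complex I subunit, is encoded by the light strand. Its level was 435 CPM in 2i, 314 CPM in 2iJ and 380.2 CPM in 2iJ+B-A on day 2, and 209 and 237 CPM on days 5 and 11. It was 140.3 and 179.6 CPM in mesoderm progenitors and 78.6 CPM in sorted cells. Per 1000 counts of the 6 readable heavy-strand mRNAs, mt-Nd6 had 22.7 counts in 2i, 20.7 in 2iJ and 21.2 in 2iJ+B-A on day 2. The value was 10.9 and 11.6 in 2iJ+B-A on days 5 and 11, 12.9 and 15.9 in mesoderm progenitors and 3.65 in sorted cells. The libraries from 2i, 2iJ and day 2 of 2iJ+B-A thus had the 3 highest values, and the sorted cells stood apart from all others. mt-Nd6 shares 14 bases with mt-Nd5 on the opposite strand. Over all genes, 5.03% to 6.47% of counts lay on the opposite strand. At mt-Nd6 the opposite strand, that of the heavy-strand genes, held 55.3% to 90.1% of the counts, and in sorted cells it held 712 CPM against 78.6 CPM for mt-Nd6. The part of misassigned strands in the mt-Nd6 values was not tested.

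Most abundant nuclear members ranged less than 2 times between libraries, and this range was not compared with that of other genes. Of the 88 tested, 79 were at 10 CPM or more in all 8 libraries, and for 61 of these the highest library was less than 2 times the lowest (median 1.71 times). This limit leaves out members that were low in some library, such as Cox7a1, Ndufs5 and Ndufa4l2. Of the 7 readable mitochondrial members, mt-Nd1, mt-Nd2, mt-Nd5 and mt-Cytb also ranged less than 2 times. Complex I assembly factor Ndufaf4 had the widest range among these 79, at 4.92 times, followed by Cox6b2 at 4.14 times. The summed level of all 92 nuclear members was 14047, 13470.2 and 11906 CPM in 2iJ+B-A on days 2, 5 and 11. It was 12502 CPM in 2i, 13149.8 CPM in 2iJ, 10729.9 CPM in sorted cells and 12406 and 10506 CPM in mesoderm progenitors. The groups overlapped, with 13141 ± 1108 CPM (SD, n = 3) in 2iJ+B-A and 11456 ± 1344 CPM (SD, n = 2) in mesoderm progenitors. Counts of readable mitochondrial members per count of a nuclear member were 1.30, 1.44 and 1.74 in 2iJ+B-A, 0.889 and 1.09 in mesoderm progenitors, 1.57 in 2i, 1.18 in 2iJ and 2.01 in sorted cells.

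Per kilobase of transcript, the nuclear member with the highest mean level over the 8 libraries was Ndufa4 for complex I (322 CPM per kb), Uqcrb for complex III (301), Cox4i1 for complex IV (936) and Atp5b for complex V (1045). Ndufa4 is named for complex I and has since been found in complex IV. Sdha, the flavoprotein of complex II, had 106 CPM per kb. Levels of Sdha were 318, 326 and 301 CPM in 2iJ+B-A, 357 and 331 CPM in mesoderm progenitors, 285 CPM in 2i, 298 CPM in 2iJ and 232 CPM in sorted cells. The iron-sulfur subunit Sdhb ranged from 62.7 to 84.5 CPM over the 8 libraries. The membrane anchors Sdhc and Sdhd ranged from 82.0 to 129.5 CPM and from 91.6 to 174 CPM. All 4 subunits of complex II, the complex without mitochondrial genes, had log2 fold changes above 0 in mesoderm progenitors, between 0.13 and 0.28, and none passed the test (lowest adjusted p = 0.284).

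**Figure D3:**
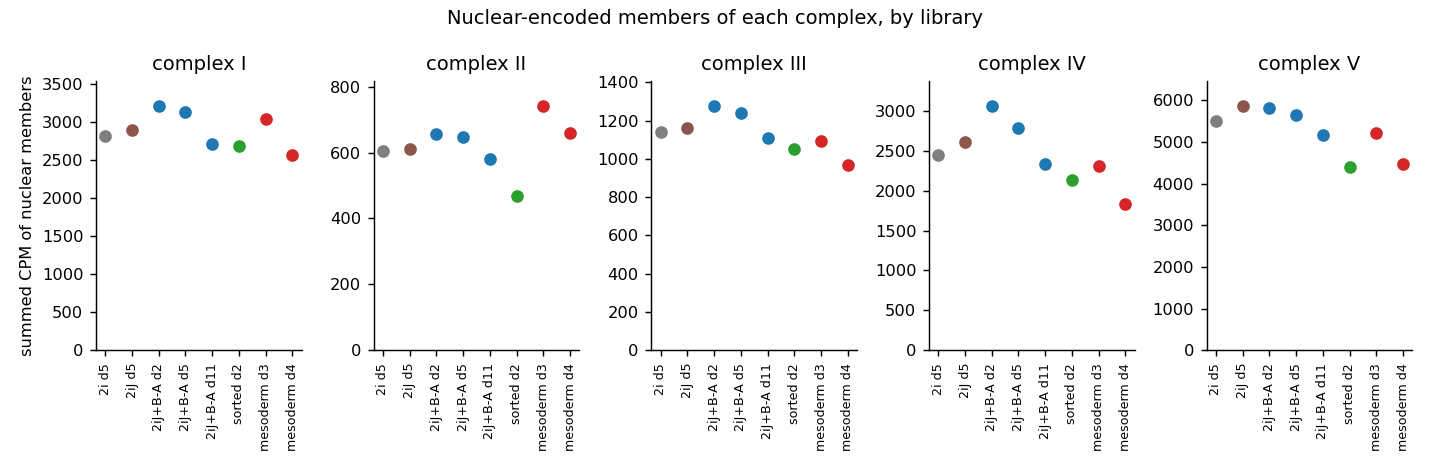
Summed level of the nuclear members of each complex (y axes, CPM from 0) in the 8 libraries (x axes, group and day; 1 point per library). Complex IV was lowest in mesoderm progenitors on day 4, at 1836 CPM, whereas complex II was highest in mesoderm progenitors on day 3, at 743 CPM.

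Across all members, 14 of 98 fell in mesoderm progenitors relative to 2iJ+B-A and 0 rose (edgeR adjusted p under 0.05). Of all 16961 genes tested, 15.5% fell and 11.5% rose, so the share of members that fell, 14.3%, was near that of all genes. The median log2 fold change was -0.17 over members and -0.03 over all genes. By genome, 5 of 10 mitochondrial members tested and 9 of 88 nuclear members fell. By complex, 7 of 20 fell in complex IV, 3 of 9 in complex III, 3 of 47 in complex I, 1 of 18 in complex V and 0 of 4 in complex II. Of those in complex IV, 4 were tissue-restricted isoforms (Cox7a1, Cox6b2, Cox7b2 and Cox8c). Cox7b2 and Cox8c had 0 counts and 1 count over both mesoderm libraries. All 3 called members of complex I were mitochondrial, and none of its 42 nuclear members tested passed. The median log2 fold change was -0.54 for complex IV, -0.37 for complex III, -0.19 for complex I, -0.10 for complex V and 0.15 for complex II. Over nuclear members alone, which leaves out the copied mitochondrial genes, it was -0.44 for complex IV, -0.26 for complex III, -0.12 for complex I and -0.07 for complex V. Levels in the 2 groups did not overlap for 35 members (35.7%) that were lower and 5 (5.1%) that were higher in mesoderm progenitors, against 31.0% and 26.2% of all genes. The members that were higher without overlap were Sdha, Atp5d, Ndufaf2, Ndufs3 and Ndufb2, and none passed the test.

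**Figure D4:**
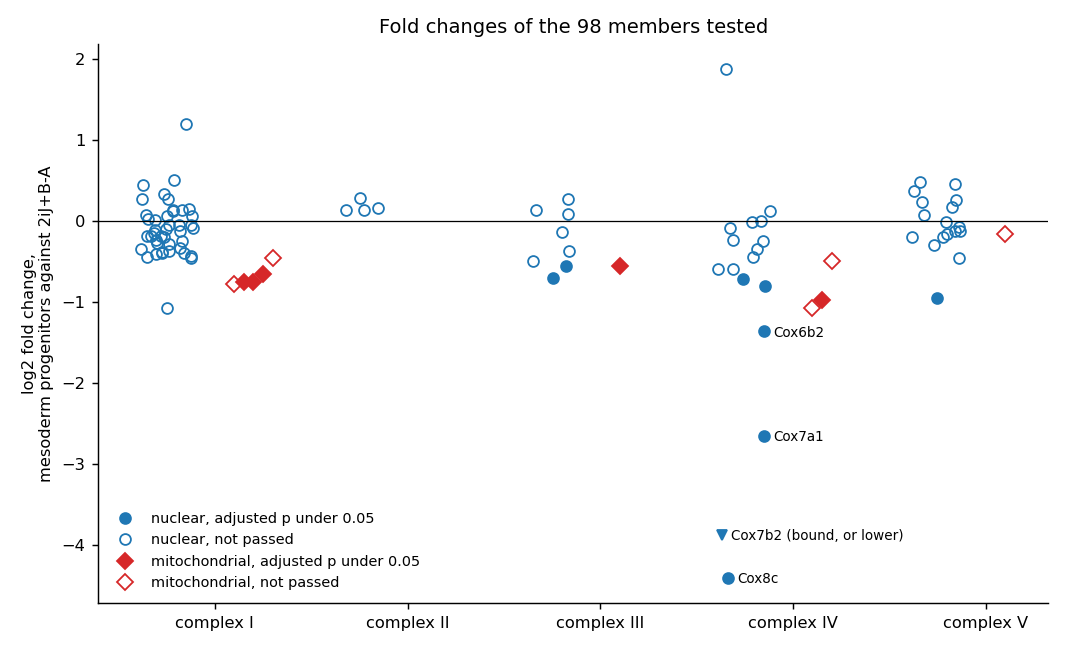
Log2 fold change of mesoderm progenitors against 2iJ+B-A (y axis) for the 98 members tested, by complex (x axis; circles nuclear, diamonds mitochondrial, filled where the edgeR adjusted p was under 0.05). Cox7b2 is drawn at its bound (triangle), because both mesoderm libraries had 0 counts, and every filled point lies below 0. The mitochondrial diamonds include mt-Co2, mt-Co3 and mt-Atp6, whose windows are all copied on chromosome 1.

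Among abundant nuclear members, those that fell were spread over complexes III, IV and V. Uqcrc1, a core subunit of complex III, was at 269, 296 and 276 CPM in 2iJ+B-A against 191 and 186 CPM in mesoderm progenitors (-0.56 ± 0.13 on the log2 scale, edgeR adjusted p = 0.0223). The groups were well apart, and sorted cells had the highest level, 332 CPM. Uqcrb, another subunit of complex III, was at 226, 199 and 165 CPM against 124 and 116 CPM (-0.70 ± 0.18, adjusted p = 0.032), with 10.0% of its windows copied elsewhere. Cox5a, a subunit that contacts the core of complex IV, was at 236, 224 and 181 CPM against 146 and 97.8 CPM (-0.80 ± 0.22, adjusted p = 0.0391). Cox6a1, the ubiquitous form of subunit 6a, was at 135, 127 and 102 CPM against 83.7 and 62.6 CPM (-0.72 ± 0.20, adjusted p = 0.042). Atp5g1 is 1 of several genes for the c-ring of complex V, which turns as protons pass. It was at 152, 201 and 172 CPM against 110 and 69.6 CPM (-0.95 ± 0.23, adjusted p = 0.0268), and 18.4% of its windows are copied. The other genes for this subunit had log2 fold changes above 0, 0.17 ± 0.18 for Atp5g2 and 0.48 ± 0.21 for Atp5g3, and did not pass (adjusted p = 0.509 and 0.134). The catalytic subunit Atp5b, at 2203, 2238 and 2186 CPM against 1718 and 1476 CPM, missed the threshold (-0.46 ± 0.15, adjusted p = 0.0636).

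The isoform pairs gave the widest differences. Cox7a1, the heart and skeletal muscle form of subunit 7a (chr7:30969190-30971047 on NCBIM37), was at 17.6 CPM in 2i and 26.9 CPM in 2iJ. In 2iJ+B-A it was at 27.9, 18.6 and 8.24 CPM on days 2, 5 and 11, and it was at 4.39 CPM in sorted cells and 2.51 and 3.26 CPM in mesoderm progenitors. Every unsorted mESC library therefore lay above the sorted and mesoderm libraries. In mesoderm progenitors it fell by 2.65 ± 0.57 on the log2 scale (edgeR adjusted p = 0.0199). Its ubiquitous partner Cox7a2, at 156, 138 and 102 CPM in 2iJ+B-A and 151 and 109 CPM in mesoderm progenitors, had a log2 fold change of -0.01 ± 0.24 (adjusted p = 0.973).

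Cox6b2, the testis form of subunit 6b, was at 30.2 CPM in 2i, 40.4 CPM in 2iJ, 70.1, 60.5 and 68.3 CPM in 2iJ+B-A and 73.7 CPM in sorted cells. In mesoderm progenitors it was at 33.7 and 17.8 CPM, and its log2 fold change against 2iJ+B-A was -1.36 ± 0.30 (edgeR adjusted p = 0.0206). The partner Cox6b1 ranged from 174 to 244 CPM with a log2 fold change of -0.09 ± 0.14 (adjusted p = 0.686). Cox7b2 and Cox8c, also known from testis, were near the floor in every library. Both met the count filter only through libraries other than the mesoderm progenitors, which favoured a call of lower there. Cox7b2 had 12, 27 and 22 counts in 2iJ+B-A, 24 in sorted cells and 0 in both mesoderm libraries, so it was at least 14.6-fold lower there (3 counts over the 2 libraries as the floor; adjusted p = 0.00975). Cox8c had 13, 10 and 14 counts in 2iJ+B-A and 0 and 1 in mesoderm progenitors, a ratio of summed shares of 26.6 with an exact 95% counting interval of 4.49 to 1080 (adjusted p = 0.0218).

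Of the remaining members of these pairs, Cox6a1 passed, as given above. Cox4i2, the oxygen-regulated form of subunit 4, was at 1.69 and 6.65 CPM in mesoderm progenitors and 2.20, 0.79 and 0.46 CPM in 2iJ+B-A (log2 fold change 1.87 ± 0.86, not passed, adjusted p = 0.154). Its partner Cox4i1 had -0.44 ± 0.18 (adjusted p = 0.117). Ndufa4l2, a hypoxia-responsive relative of Ndufa4, was at 9.34 CPM in 2i, 6.54 CPM in 2iJ, and 3.46, 0.382 and 0.130 CPM in 2iJ+B-A on days 2, 5 and 11. It had 0.922 and 0.323 CPM in mesoderm progenitors and 1 count in sorted cells. The ubiquitous Cox7b and Cox8a, partners of Cox7b2 and Cox8c, did not pass and had log2 fold changes of -0.23 ± 0.20 and -0.59 ± 0.21 (adjusted p = 0.429 and 0.0812).

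**Figure D5:**
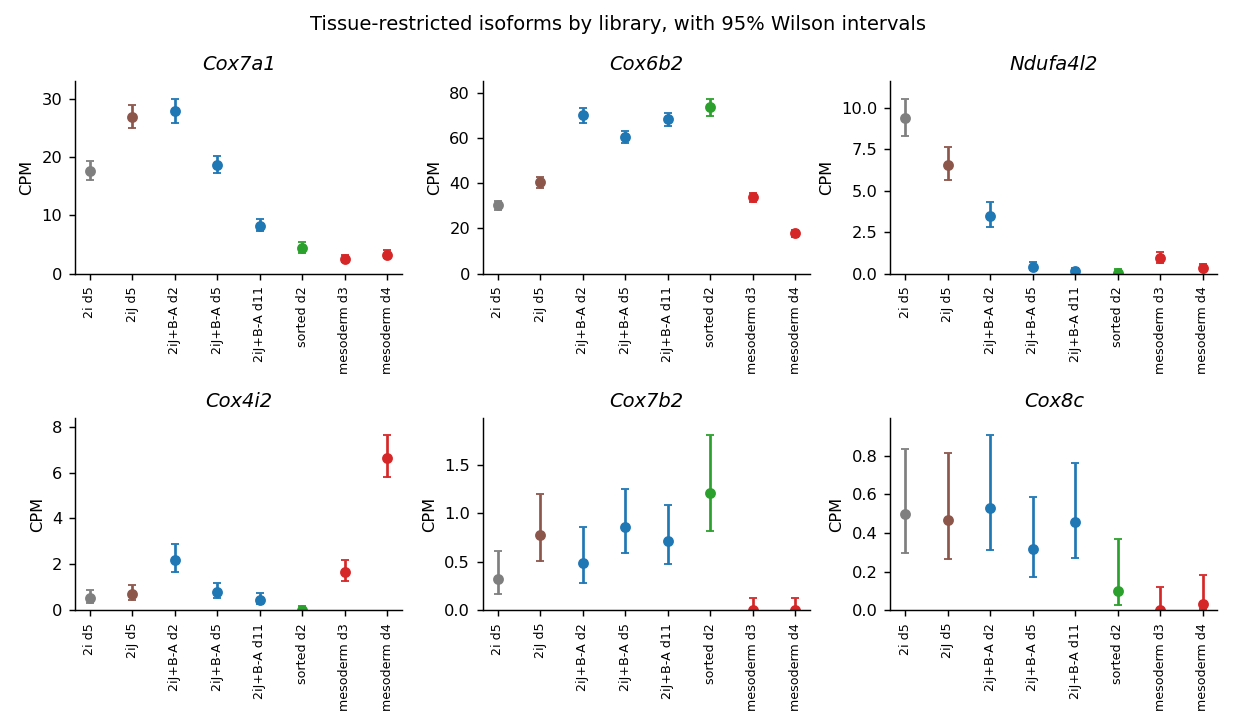
Levels of 6 tissue-restricted members (y axes, CPM from 0; bars are 95% Wilson intervals for counting error) in the 8 libraries (x axes, group and day). Cox7a1, Cox6b2, Cox7b2 and Cox8c are lower in both mesoderm libraries than in any 2iJ+B-A library, and Ndufa4l2 runs from 9.34 CPM in 2i to 0.130 CPM in 2iJ+B-A on day 11.

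These calls rested on few libraries. Counts given below without a share of all genes show only how the calls depend on the libraries. Without day 5 of 2iJ+B-A only Cox7b2 passed, and without day 11 only Cox7b2, Cox7a1 and Uqcrb, while 12.1% and 15.9% of all genes passed. Without day 3 of the mesoderm progenitors 9 members passed, and without day 4 there were 7, of which Ndufaf4 was higher, whereas without day 2 of 2iJ+B-A there were 10.

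Promoters of the nuclear members were searched for short motifs of factors known to regulate them. RefSeq promoters (GRCm38.p6, 250 bases before to 50 after the start of the gene, both strands searched) were found for 71 members. The NRF1 motif, GCGC and TGCGC with any 1 base between them, occurred in 17 of the 71 (23.9%) and in 4.78% of 27025 promoters of all genes. The YY1 motif AAGATGGC occurred in 8 (11.3%) against 2.88%, and the ETS motif CCGGAAGT, bound by GABPA, in 5 (7.04%) against 4.0%. Of the 9 nuclear members that fell in mesoderm progenitors, 7 had a promoter in this table. Those of Uqcrc1 and Cox6a1 had NRF1 matches, and those of Cox7a1, Cox7b2, Cox6b2, Cox5a and Atp5g1 had none of the 3 motifs. A ubiquitous subunit from each of complexes III and IV and the muscle isoform Cox7a1 are shown, with motif matches in capitals.
Uqcrc1, chr9:108936398-108936697, plus strand: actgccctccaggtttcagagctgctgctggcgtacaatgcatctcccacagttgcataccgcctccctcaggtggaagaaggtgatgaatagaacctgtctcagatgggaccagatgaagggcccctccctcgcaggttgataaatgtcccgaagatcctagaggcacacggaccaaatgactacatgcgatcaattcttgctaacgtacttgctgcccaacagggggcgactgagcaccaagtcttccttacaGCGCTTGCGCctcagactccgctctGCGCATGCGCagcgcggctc
Cox6a1, chr5:115348909-115349208, minus strand: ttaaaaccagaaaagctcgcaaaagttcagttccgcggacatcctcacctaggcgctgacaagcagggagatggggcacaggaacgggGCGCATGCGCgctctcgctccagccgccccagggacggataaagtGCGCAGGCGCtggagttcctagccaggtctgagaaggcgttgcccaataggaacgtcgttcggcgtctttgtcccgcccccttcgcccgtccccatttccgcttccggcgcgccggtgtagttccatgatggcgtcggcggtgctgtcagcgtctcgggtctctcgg
Cox7a1, chr7:30183921-30184220, plus strand: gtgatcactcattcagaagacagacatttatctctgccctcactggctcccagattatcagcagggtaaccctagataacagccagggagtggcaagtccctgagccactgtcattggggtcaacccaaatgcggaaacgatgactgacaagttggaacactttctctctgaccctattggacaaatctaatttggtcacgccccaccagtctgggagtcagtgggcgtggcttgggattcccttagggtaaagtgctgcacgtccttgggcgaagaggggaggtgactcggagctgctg

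Each of the upper promoters holds 2 NRF1 matches, and the Cox7a1 window holds none. All 3 genes fell in mesoderm progenitors. A match is a string of letters and was not tested as a binding site.

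Sorted Cdx2-GFP-positive cells were compared with 2iJ+B-A to describe cells that had activated Cdx2, a regulator of trophectoderm. Of 98 members, 1 rose and 0 fell (edgeR adjusted p under 0.05), against 3.34% and 2.08% of all genes tested. An unadjusted p under 0.05 was found for 17 of 98 members and 4586 of 16961 genes, and DESeq2 called 7 members and 15.7% of all genes. The sorted arm is 1 library, so the test takes its spread from the other groups. Without any 1 of the 2iJ+B-A libraries (day 2, 5 or 11) no member passed, and without either mesoderm library, which enters only the estimate of the spread, 5 passed. The member that rose was Ndufs5, an accessory subunit of complex I, at 44.0 CPM in sorted cells and 10.3, 13.0 and 7.49 CPM in 2iJ+B-A (log2 fold change 2.15 ± 0.37, adjusted p = 0.033). It had 6.29 to 11.2 CPM in the other 4 libraries, and 36.6% of its windows have an exact copy elsewhere, so its counts are uncertain. Uqcrh, the hinge subunit of complex III, at 74.3 CPM against 174, 145 and 139 CPM, just missed the threshold (-0.99 ± 0.22, adjusted p = 0.0534). So did mt-Nd6 (-1.76 ± 0.42, adjusted p = 0.0624). The trophectoderm markers summed to 3852 CPM in the sorted library and to 92.1 to 1299 CPM elsewhere. Of the sorted sum, Krt8 and Krt18 had 1731 and 1595 CPM, and Cdx2, whose reporter was sorted on, had 235 CPM. Against 2iJ+B-A, 6 of the 8 markers had log2 fold changes above 0. The 2 below 0 were Hand1 (-0.35) and Eomes (-0.37).

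Against the unsorted library of the same day, with 1 library on each side and no replicate check, 5 of 98 members were at least 1.5-fold higher and 25 at least 1.5-fold lower. Among all genes with enough counts, 29.6% were higher and 26.2% lower by this rule. Cox7a1 was 6.35-fold lower, at 4.39 against 27.9 CPM, mt-Nd6 4.83-fold lower, at 78.6 against 380.2 CPM, and assembly factor Ndufaf2 2.46-fold lower, at 10.7 against 26.3 CPM. Ndufa4l2 had 1 count against 85, a ratio of 68.6 with an exact 95% counting interval of 12.0 to 2740. Cox4i2 had 0 counts against 54 and was at least 14.5-fold lower (floor of 3 counts). Among members with a mean of 10 CPM or more, those at least 1.5-fold higher were Ndufs5 (4.27-fold) and Ndufv3 (1.81-fold), a regulatory subunit of complex I. The others that were higher, Cox7b2, mt-Co2 and mt-Co3, had a mean under 10 CPM, and the last pair is copied on chromosome 1. Those that were lower include Atp5g2, whose windows are all copied. The reporter line, sorting, depth, unmapped and unassigned reads and fibroblast markers all differed between these libraries, and their parts could not be told apart.

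For the addition of BMP4 and ALK5 inhibition to 2iJ, 0 of 98 members passed the edgeR test, as did 0.0% of all genes tested. The reference was the single 2iJ library of day 5, set against days 2, 5 and 11 of 2iJ+B-A, so days differed as well as treatment. Even Krt8, with a log2 fold change of 4.42 ± 0.78, did not pass, so the lack of calls does not show that levels were unchanged. Unadjusted p was under 0.05 for 3 members, all mitochondrial, and for 1290 of all genes. They were mt-Cytb, at 1938 CPM in 2iJ (log2 fold change 0.75 ± 0.21, adjusted p = 0.491), mt-Nd4 (0.57 ± 0.22, adjusted p = 0.627) and mt-Nd2 (0.47 ± 0.18, adjusted p = 0.627). DESeq2 called 1 member, mt-Cytb. The median log2 fold change was 0.44 over the 7 readable mitochondrial members, -0.03 over nuclear members and 0.03 over all genes. The 2iJ reference was lower than 2i for all of these named genes. In 2iJ mt-Cytb, mt-Nd4 and mt-Nd2 were at 1938, 514 and 881 CPM, and in 2i at 2570, 762 and 1196 CPM. Their means in 2iJ+B-A were 3400, 799 and 1273 CPM (n = 3). The same 2iJ+B-A libraries served in the mesoderm and sorted comparisons.

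JAK inhibition was described by 2iJ against 2i on day 5, with 1 library each. At least a 1.5-fold difference was seen for 2 members that were higher and 3 that were lower, against 11.3% and 7.9% of all genes. Among members with a mean of 10 CPM or more, only Cox7a1 passed this rule, at 26.9 CPM in 2iJ and 17.6 CPM in 2i (1.53-fold). The other 4 had a mean under 10 CPM, and they were Cox7b2, Ndufb2, mt-Co2 and mt-Atp6, of which the last pair is copied on chromosome 1. The readable mitochondrial mRNAs missed the rule, but all were lower in 2iJ, from 1.18-fold for mt-Co1 to 1.48-fold for mt-Nd4. The median ratio of 2iJ to 2i was 1.06 over members and 1.02 over all genes.

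Within 2iJ+B-A, no member passed the test of a slope on log2(day) over days 2, 5 and 11 (lowest edgeR adjusted p = 0.827), nor did any gene (0.0%), and DESeq2 called no member either. Unadjusted p was under 0.05 for 12 members, all nuclear, and for 1004 of all genes. Slopes were below 0 for 77 of 88 nuclear members, against 8434 of 16961 genes, with a median of -0.12 per doubling of days against 0.0 for all genes. For the readable mitochondrial members, 1 of 7 slopes was below 0, that of mt-Nd6. The steepest slopes were -1.99 ± 0.41 for Ndufa4l2 and -0.72 ± 0.19 for Cox7a1 (adjusted p = 0.827 for both). With either mesoderm library left out, these 2 members passed. Nuclear complex IV summed to 3066, 2787 and 2335 CPM on days 2, 5 and 11, complex V to 5825, 5660 and 5168 CPM and complex I to 3219, 3137 and 2711 CPM, so that each was lowest on day 11.

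Mesoderm progenitors on day 4, after IWP-2, were described against day 3, again with 1 library each. Of 96 members with enough counts, 3 were at least 1.5-fold higher and 11 at least 1.5-fold lower, against 19.0% and 20.3% of all genes. Those that were lower include mt-Co3, which is copied on chromosome 1, and Atp5l, with most of its windows copied. The members furthest down with a mean of 10 CPM or more were Ndufaf4, from 115 to 32.8 CPM (3.52-fold lower), Uqcrq, from 88.4 to 35.4 CPM (2.50-fold), and Cox6b2, from 33.7 to 17.8 CPM (1.90-fold). Ndufaf4 had 23.4 to 44.4 CPM in the 6 other libraries, so day 3 alone stood out. By the same limit the furthest up was Ndufv3, from 24.0 to 43.8 CPM (1.82-fold), while Cox4i2, below it, went from 1.69 to 6.65 CPM (3.95-fold). Over the same step the nascent mesoderm markers summed to 1608 and then 585 CPM, and the pluripotency markers to 1276 and then 127 CPM.

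Genes that serve oxidative phosphorylation outside the rule were followed as lists in the comparison of mesoderm progenitors with 2iJ+B-A, where 15.5% of all genes fell and 11.5% rose. Of 7 regulators of mitochondrial biogenesis tested, 2 fell and 0 rose. These were Gabpa, a subunit of an ETS factor, at 207, 165 and 191 CPM against 109 and 105 CPM (log2 fold change -0.80 ± 0.16, edgeR adjusted p = 0.0163), and the coactivator Pprc1 (-0.57 ± 0.16, adjusted p = 0.0441). Ppargc1a was not tested, with at most 0.228 CPM. None of 10 genes of mitochondrial DNA and transcription passed the edgeR test (2 had an unadjusted p under 0.05), and Tfam, which packages and transcribes that DNA, had 0.51 ± 0.24 (adjusted p = 0.158). Of 17 genes of mitochondrial RNA processing, 1 rose, Hsd17b10, a subunit of mitochondrial RNase P (1.06 ± 0.22, adjusted p = 0.0167). Lrpprc, which stabilises mitochondrial mRNAs, had -0.09 ± 0.15 (adjusted p = 0.68).

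Of 29 further assembly factors, 1 fell, the copper chaperone Cox17 (-0.76 ± 0.22, edgeR adjusted p = 0.0457). Of 16 genes of electron carriers and coenzyme Q synthesis, 3 fell and 0 rose, namely Coq3, a methyltransferase of coenzyme Q synthesis (-1.17 ± 0.21, adjusted p = 0.0117), Etfb, a subunit of the electron transfer flavoprotein (-0.85 ± 0.24, adjusted p = 0.0411), and Cyct. Cyct, the testis form of cytochrome c, was at 6.56, 4.96 and 3.06 CPM in 2iJ+B-A and 0.127 and 0.0969 CPM in mesoderm progenitors (adjusted p = 0.00348), while Cycs, the somatic form, had 0.22 ± 0.25 (adjusted p = 0.553). Of 6 adenine nucleotide carriers and uncoupling proteins tested, Slc25a31, the testis carrier, fell (-5.05 ± 0.58, adjusted p = 0.00356) and Slc25a4, the muscle carrier, rose (0.72 ± 0.20, adjusted p = 0.0429). The testis forms that fell here and in complex IV were Cyct, Slc25a31, Cox6b2, Cox7b2 and Cox8c, a grouping made after their values were seen. All of them but Cox6b2 met the count filter only through libraries other than the mesoderm progenitors. A call of lower was therefore favoured by the filter, and the grouping is a description only. Of 20 genes of the tricarboxylic acid cycle and pyruvate entry, 3 rose and 1 fell. Pdha1, which brings pyruvate into the cycle, rose from 167, 228 and 258 CPM in 2iJ+B-A to 1077 and 891 CPM in mesoderm progenitors (2.19 ± 0.21, adjusted p = 0.00221), and Dlst and Dlat rose by 0.52 and 0.51 on the log2 scale. Suclg2, a subunit of succinyl-CoA ligase, fell by 0.51. Of 75 proteins of the mitochondrial ribosome, 6 fell and 0 rose, a smaller share than the 15.5% of all genes that fell, with a median log2 fold change of -0.06. The furthest down were Mrpl49, Mrps31 and Mrpl15, which fell by 0.87, 0.86 and 0.78 on the log2 scale.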

How the data were processed

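RNA-seq libraries were made by the authors with a directional poly-A kit, trimmed with TrimGalore and aligned to NCBIM37 with STAR, and the deposited files hold raw counts of read pairs per gene, unstranded and by strand. Reads that align equally well to several places are not in these counts. Column 4 (reverse strand) was used, and no batch correction is in it. Sample codes in the labels carry 1 letter for mesoderm progenitors, another for sorted cells and another for the remaining libraries, and a batch that followed the letter cannot be told apart from the comparisons across it. The 16961 genes that reached 10 counts in 2 or more libraries were fitted over all 5 groups with edgeR 4.0.16 (TMM, quasi-likelihood, Benjamini-Hochberg adjustment, threshold 0.05) in R 4.3.3, with 3 residual degrees of freedom, or 2 for the slope on log2(day). Values after ± are SE for log2 fold changes and SD for levels. Steps with 1 library on each side used a 1.5-fold rule and no test. Named with values were the mitochondrial members, complex II, isoform pairs, the nuclear member highest per length in each other complex, up to 6 called members in each direction of a tested comparison (3 in each list of other genes) and up to 3 with a mean of at least 10 CPM in each direction of an untested step, besides Tfam, Ppargc1a, Lrpprc and Cycs. Cox5a, Uqcrc1, Uqcrh, Atp5g2, Atp5g3, Ndufb2, Ndufs3, Atp5d and the members at low counts were named after their values were seen. DESeq2 1.42.0 was an alternative. Scripts were tested on simulated data. Members and lists were chosen with earlier results of these data known.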

Additional observations from a re-analysis of the deposited data

Results flagged for a closer look

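Reads on the strand opposite to mt-Nd5 amounted to 672.962 CPM in 2i (18942 counts, 25.4% of the reads on both strands). They drew attention because they lie outside the counts used for any comparison and far above the floor of 3 counts. The level was 475 CPM in 2iJ, 528, 338 and 274 CPM in 2iJ+B-A on days 2, 5 and 11, 225 and 292 CPM in mesoderm progenitors and 103 CPM in sorted cells (2037 counts, 6.0% of both strands). The same 3 libraries, 2i, 2iJ and day 2 of 2iJ+B-A, were the highest for mt-Nd6, which is read from this strand, and the sorted library was the lowest for both. Over all genes, 5.03% to 6.47% of counts lay on the opposite strand, a range that holds the sorted value at mt-Nd5. The relation of these reads to mt-Nd6 was not tested.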

How the results depend on the processing

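The number of members called in mesoderm progenitors, 14, ranged from 1 (without day 5 of 2iJ+B-A) to 14 when 1 library was left out, and was 18 with DESeq2. In sorted cells, where 1 member passed, DESeq2 called 7, no filter on low counts 3, a fit to the groups compared alone 4 and the slope model at day 2 called 0, with 0 to 5 when 1 library was left out. For 2iJ+B-A against 2iJ DESeq2 called 1 against 0, and the slope on days gave 0 to 2 without 1 library. With unstranded counts the summed mitochondrial mRNAs averaged 11839.9 CPM in mesoderm progenitors. No direction reversed under the alternatives run. Shares of all genes are not given for most of these counts, so members were not compared with other genes under those settings. For the called members and readable mitochondrial genes in mesoderm progenitors and sorted cells, 275 recomputed values stayed on their side of the threshold, 54 lost it and 7 gained it. No paired analysis was possible because no label matches a culture of 1 group to a culture of another. The titles of all libraries carry the same mark, (II), which separates no groups. Depth limits Cox7b2 and Cox8c, with at most 27 counts per library.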
